A study of Homo sapiens with 12 samples.

Results

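The genes described here encode the nuclear part of oxidative phosphorylation (OXPHOS), measured in 2 human hepatocellular carcinoma lines with and without the compound DAAD2. Members were probe sets with a single gene symbol that starts with NDUFA, NDUFB, NDUFC, NDUFS, NDUFV, UQCR, ATP5 or one of COX4 to COX8, together with SDHA, SDHC and SDHD. The rule found 173 of 54613 probe sets, which stand for 90 of 19775 genes. Of these genes, 76 encode subunits (148 probe sets): 33 of complex I, 3 of complex II, 6 of complex III, 17 of complex IV and 17 of complex V. The other 14 genes share only the letters of their names. They are 8 NDUFAF assembly factors of complex I, the inhibitor ATP5IF1, the pseudogenes ATP5MC2P1 and COX6A1P1, and the transcripts NDUFB2-AS1, NDUFV1-DT and NDUFV2-AS1, which lie next to or opposite a subunit gene. SDHB and UQCRFS1 had no member probe set and were not analysed here, and 15 probe sets whose annotation mixes a member with other genes were left out.

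The respiratory chain of the inner mitochondrial membrane moves electrons from NADH through complex I, or from succinate through complex II, by way of complex III to oxygen at complex IV. Complexes I, III and IV pump protons, and complex V, the ATP synthase, lets them flow back and makes ATP. A few subunits of complexes I, III, IV and V are encoded by mitochondrial DNA and all others by the nucleus. In hepatocytes this chain supplies the ATP for bile acid, glucose and urea synthesis.

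Each of 4 groups was profiled on 3 Affymetrix arrays, 12 in all. Hep3B cells, labelled DAAD-2-sensitive, had received 2 μM DAAD2 for 72 h, and SNU-449 cells (SNU449), labelled DAAD-2-resistant, 20 μM for 72 h. The controls of both lines had received the vehicle, 0.1% DMSO, for 72 h. DAAD2 is dehydroabietylamine, a diterpene amine, joined to N-acetyl-L-cysteine. The study states in general that its data came from 3 independent experiments, without naming the arrays. No source used here says if the triplicate arrays stand for separate cultures. The p-values therefore reflect only how far arrays of 1 group lay apart, and that spread may be technical. Because dose and line change together, their effects on the response cannot be told apart. The direction of SNU449 values rests on the sample labels. In the study's own SNU449 table the columns of group means are headed the other way round, and the fold columns are not.

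The control cells carried the marks of their lines. ALB (albumin), APOA1, APOB, SERPINA1 and TTR, 5 of 6 hepatocyte markers, were called higher in Hep3B, with ALB 11.35 log2 units apart, whereas FGB (a fibrinogen chain) was called higher in SNU449. Among 5 mesenchymal markers VIM, ZEB1 and CDH2 were called higher in SNU449 and FN1 and TGFBI higher in Hep3B. PTPRC, which marks leukocytes, was at 3.23 ± 0.04 and 3.21 ± 0.05 (SD, n = 3) in the Hep3B and SNU449 controls, below the median probe set mean of 3.81. Of 5 leukocyte markers 1 (CD14) was called higher and 1 lower in Hep3B, and of 6 fibroblast and endothelial markers 1 was called higher. After DAAD2, FGB rose by 1.56 and TGFBI by 0.99 in SNU449, the former call being lost without DMSO replicate 2 or DAAD2 replicate 1 (adjusted p up to 0.0629). In Hep3B no marker was called. At an unadjusted p under 0.05 from limma 3 of 6 hepatocyte markers were lower (APOA1 -0.45, SERPINA1 -0.36 and TTR -0.32) and 3 of 5 mesenchymal markers higher. Over all genes 6.63% were lower and 13.6% higher at that threshold. Of 6 fibroblast and endothelial markers 1 was lower (DCN -0.63) and 1 higher (LUM 0.75). Of 5 leukocyte markers 1 was higher and 1 lower. The part of these shifts in the DAAD2 results was not tested. The array medians lay between 3.71 and 3.85. The 3′ minus 5′ signal of GAPDH, a sign of RNA degradation, was 0.45 to 1.51 log2 units on the Hep3B arrays and 0.34 to 0.97 on the SNU449 arrays except DAAD2 replicate 2, at 1.99. The lowest of these values within each control group belonged to replicate 2 (0.45 in Hep3B and 0.34 in SNU449), and on that array the OXPHOS genes lay 0.07 above the mean of their control group at the median, in both lines.

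Many OXPHOS promoters hold sites for nuclear respiratory factor 1 (NRF1) and for ETS factors such as GABP. These sites were searched on both strands in the 250 bases before the start of each gene, as CGCANGCGC for NRF1 and CCGGAAG for ETS factors. RefSeq promoters (build GRCh38.p14) were matched to 65 of the 76 subunit genes. The NRF1 letters stood in 20 of them (30.8%), against 7.09% of 27305 promoters, and the ETS letters in 15 (23.1%), against 8.82%. The letters AAGATGGCG, bound by YY1, stood in 1 (1.54% against 0.641%). In a window of 300 bases that runs past the start, 7 promoters held them (10.8% against 1.85%). Of the 26 matched genes that were called higher in Hep3B controls 9 held the NRF1 letters and 8 the ETS letters, and of the other 39 these were 11 and 7.

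These 4 promoters are shown because their genes had among the largest differences between the lines, with UQCR11, NDUFS7 and NDUFA13 higher in Hep3B and SDHA higher in SNU449. Capitals mark the NRF1 and ETS letters on either strand, none of which overlap.
UQCR11, chr19:1605463-1605712, minus strand: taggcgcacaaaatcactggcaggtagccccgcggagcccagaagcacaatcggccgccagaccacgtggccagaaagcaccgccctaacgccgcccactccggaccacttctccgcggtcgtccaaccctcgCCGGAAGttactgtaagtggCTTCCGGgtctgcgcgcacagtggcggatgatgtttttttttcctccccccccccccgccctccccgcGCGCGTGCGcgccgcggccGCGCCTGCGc
NDUFS7, chr19:1383657-1383906, plus strand: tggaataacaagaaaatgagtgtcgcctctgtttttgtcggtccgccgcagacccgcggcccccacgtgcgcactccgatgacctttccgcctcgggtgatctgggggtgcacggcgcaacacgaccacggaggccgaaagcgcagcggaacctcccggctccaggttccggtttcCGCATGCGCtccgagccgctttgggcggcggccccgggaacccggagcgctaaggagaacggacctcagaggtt
NDUFA13, chr19:19515975-19516224, plus strand: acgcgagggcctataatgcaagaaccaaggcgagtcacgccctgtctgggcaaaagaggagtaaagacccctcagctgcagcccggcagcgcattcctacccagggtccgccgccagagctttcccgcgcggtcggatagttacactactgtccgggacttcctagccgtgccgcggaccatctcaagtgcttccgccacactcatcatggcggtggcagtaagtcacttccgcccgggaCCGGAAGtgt
SDHA, chr5:218070-218319, plus strand: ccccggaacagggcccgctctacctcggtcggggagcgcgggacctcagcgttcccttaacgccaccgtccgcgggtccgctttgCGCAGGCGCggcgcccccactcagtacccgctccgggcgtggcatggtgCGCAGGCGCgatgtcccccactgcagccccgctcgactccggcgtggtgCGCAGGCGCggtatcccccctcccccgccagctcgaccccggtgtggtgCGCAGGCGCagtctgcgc
UQCR11 held 2 NRF1 and 2 ETS matches, NDUFS7 held 1 NRF1 match and NDUFA13 held 1 ETS match. SDHA, which differed the other way, held 4 NRF1 matches of identical letters, and NDUFV3, higher in Hep3B, held none of the 3 motifs. A match describes the letters only and shows no binding.

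The control cells were compared first, since they show the RNA levels of the genes of each complex in both lines without DAAD2. A probe set was called where limma, with Benjamini-Hochberg adjustment over all 54613, gave an adjusted p under 0.05. Of the 173 OXPHOS probe sets 51 were called higher and 15 lower in Hep3B than in SNU449, against 14.5% higher and 14.8% lower among all probe sets. Many probe sets of the array are dim, which pulls such shares down, and 35 of the 173 lay at or below the median probe set mean. Each gene was therefore also described by its leading probe set, the one with the highest mean over the 12 arrays. On these, 34 of 90 genes were called higher and 9 lower, against 21.4% and 19.4% of 19775 genes. The median difference was 0.18 log2 units over the OXPHOS genes and -0.01 over all genes. Only 6 of the 90 OXPHOS genes have a dim leading probe set, and the shares over all genes still include dim ones. Of the 138 OXPHOS probe sets that are not dim 51 (37%) were called higher and 13 (9.42%) lower. A fit of only the 27306 probe sets that are not dim called 7353 of them higher and 7199 lower. These arrays measure RNA of whole cultures relative to all RNA on the array, so fewer cells of a kind and less RNA per cell cannot be told apart.

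Complex I, the NADH dehydrogenase, had the most called genes. On the leading probe sets 20 of its 33 genes (60.6%) were called higher in Hep3B controls and 2 (6.06%) lower. The shares of all genes were 21.4% and 19.4%. Of the 33 genes 26 lay above 0, and the median difference was 0.52. Against the SNU449 control means, the median over these 33 genes lay between 0.50 and 0.64 on the 6 Hep3B arrays and between -0.06 and 0.11 on the 6 SNU449 arrays, so the lines did not overlap. Of the 5 core subunits measured, all were above 0 and 3 were called, namely NDUFS7, NDUFS3 and NDUFV1.

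NDUFS7, which carries the last iron-sulfur cluster before ubiquinone, was at 10.31, 10.53 and 10.09 on the Hep3B control arrays and at 8.48, 8.86 and 8.72 on the SNU449 control arrays. The groups lay more than 1 log2 unit apart at their nearest arrays, and the mean difference was 1.62 (standard error 0.14, a 3.08-fold higher signal, adjusted p = 2.81e-05). NDUFS3, a subunit of the same arm that reaches into the matrix, differed by 1.21 (standard error 0.11). NDUFV1, the flavin-bearing subunit where NADH is oxidised, was at 10.85, 10.97 and 10.85 in Hep3B against 9.89, 10.00 and 9.65 in SNU449, a difference of 1.04 (standard error 0.11, adjusted p = 0.000116). NDUFS1, the largest core subunit, was not called on its leading probe set, with 9.37 ± 0.05 against 9.18 ± 0.03 (SD, n = 3; difference 0.20, adjusted p = 0.145). A second probe set of NDUFS1, 229647_at, was called at 0.81, so the reading for this gene depends on the probes.

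Among the 28 accessory subunits of complex I 17 were called higher and 2 lower, against 21.4% and 19.4% of all genes. NDUFV3 was at 9.92, 10.13 and 9.89 in Hep3B controls and at 7.98, 8.47 and 8.35 in SNU449 controls, a difference of 1.71 (standard error 0.14), while its other probe set, 226209_at, differed by 0.18 and was not called. NDUFA13, also known as GRIM-19, was at 11.83, 12.04 and 11.60 against 10.34, 10.49 and 10.04, a difference of 1.53 (standard error 0.15). NDUFAB1, the acyl carrier protein of the mitochondrion, differed by 1.20 with a spread of 0.01 and 0.08 (SD, n = 3) in the groups. NDUFA11, of the membrane arm, was at 11.62, 11.72 and 11.66 against 10.48, 10.79 and 10.68. NDUFA3 (0.97), NDUFB7 (0.96), NDUFA9 (0.83), NDUFB4 (0.82), NDUFA8 (0.79) and NDUFB5 (0.77) came next in the order of differences. At the other end NDUFB3 (0.02), NDUFB11 (-0.01) and NDUFA10 (-0.07), also of the membrane arm, lay near 0 and were not called. The 2 genes called lower in Hep3B were NDUFA1 (-0.36, adjusted p = 0.0156) and NDUFC1 (-0.35, adjusted p = 0.0347), both small membrane subunits, with differences smaller than those of the 20 genes called higher, which ran from 0.46 to 1.71. Secondary probe sets of NDUFB8 (-0.67 on the dim 214241_at) and NDUFB2 (-0.57 on 240391_at) were also called lower, while the leading ones of both genes were not called (-0.14 and -0.20).

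**Figure D1:**
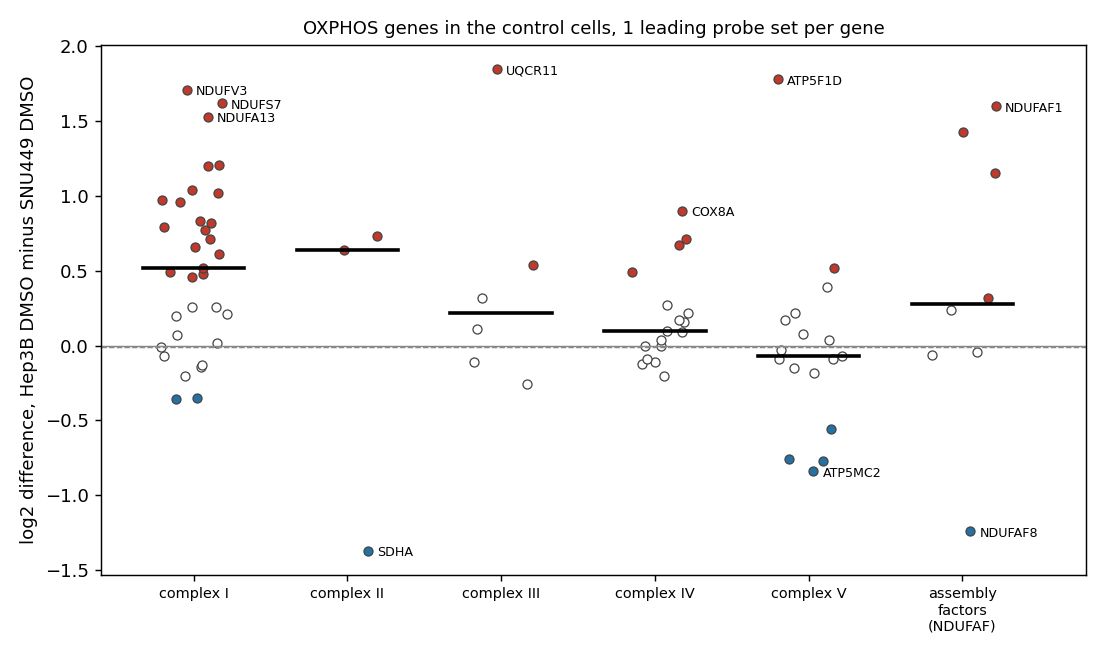
Log2 difference between Hep3B and SNU449 control cells (y axis, Hep3B DMSO minus SNU449 DMSO, means of 3 arrays each) for the leading probe set of each gene, by complex and for the 8 NDUFAF assembly factors; red points were called higher in Hep3B, blue points lower, and white points were not called. Black bars are medians and the dashed line is the median of all genes at -0.01. Complex I has its median at 0.52 with 20 of 33 genes red, and complex V at -0.07 with 4 of 17 genes blue. Of all genes 21.4% were called higher and 19.4% lower.

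Complex II, succinate dehydrogenase, which also serves the citric acid cycle, was split. SDHA, the flavoprotein that oxidises succinate, was at 9.20, 9.10 and 9.01 in Hep3B controls and at 10.47, 10.41 and 10.54 in SNU449 controls. It was 2.58-fold lower in Hep3B (difference -1.37, standard error 0.10, adjusted p = 7.18e-06). The only SDHA probe set among the members is of the _x_ type, whose probes can also match other transcripts, and the genome holds SDHA pseudogenes, so this level is uncertain. SDHC and SDHD, the membrane anchors, were both called higher in Hep3B on their leading probe sets, by 0.73 and 0.64. Without _x_ probe sets 1 of the 3 leading probe sets of complex II is left, so SDHC or SDHD also has this limit of probe type. The 7 probe sets of SDHC all lay above 0, from 0.25 to 1.86, and the largest value came from 238056_at (6.75, 6.31 and 6.70 against 4.83, 4.67 and 4.69). Of the 10 probe sets of complex II 2 lay below 0, namely that of SDHA and a secondary probe set of SDHD, which was not called.

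In complex III 2 of 6 genes (33.3%) were called higher and 0 lower, against 21.4% and 19.4% of all genes. At an unadjusted p under 0.05 these counts were 3 and 0. UQCR11, a small accessory subunit, was at 12.11, 12.39 and 12.33 in Hep3B controls and at 10.50, 10.47 and 10.31 in SNU449 controls. Its difference of 1.85 (standard error 0.11, 3.6-fold, adjusted p = 2.49e-06) was the largest among all leading probe sets of the members, and its other probe set, 223613_at, was called at 0.74. UQCRC2, a core protein, was called at 0.54. UQCRC1, the other core protein, was at 10.44 ± 0.22 and 10.13 ± 0.13 (SD, n = 3) and was not called (0.32, adjusted p = 0.12).

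Complex IV, cytochrome c oxidase, differed less, with a median of 0.10. Of its 17 genes 4 (23.5%) were called higher, near the 21.4% of all genes. At either threshold 0 of the 17 were lower, against 19.4% of all genes called lower. The 17 include the isoforms of muscle, lung or testis given below. These had low levels and were not called, so they lower the share of complex IV that was called. The called genes were COX8A (0.90), COX7A2 (0.71), COX5A (0.67) and COX6B1 (0.49). COX8A, the smallest nuclear subunit, was at 12.36, 12.61 and 12.36 against 11.43, 11.62 and 11.59, and COX7A2 at 12.70, 12.78 and 12.75 against 12.06, 12.02 and 12.02, so that neither overlapped. COX5A, a subunit on the matrix side, was at 11.56, 11.65 and 11.57 in Hep3B against 10.83, 11.00 and 10.93 in SNU449. COX4I1, the largest nuclear subunit, was at 11.97 ± 0.07 and 12.08 ± 0.07 (SD, n = 3), a difference of -0.11 with a 95% interval of -0.32 to 0.10. Isoforms made mainly in muscle, lung or testis (COX4I2, COX6A2, COX6B2, COX7A1, COX7B2 and COX8C) had mean levels between 2.86 and 4.63 in every group and were not called, 4 of them being dim. COX7B was split by probe set, with 0.09 on its leading one, 202110_at (adjusted p = 0.628), and -1.80 on 239252_at, where Hep3B controls were at 4.11, 4.04 and 3.78 and SNU449 controls at 5.76, 5.89 and 5.69 (adjusted p = 4e-06).

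In complex V, the ATP synthase, 2 of 17 genes (11.8%) were called higher and 4 (23.5%) lower, and the median was -0.07. The shares of all genes were 21.4% and 19.4%, so the share called lower was near the background. The 6 Hep3B arrays had medians between -0.09 and 0.01 for this complex and the 6 SNU449 arrays between -0.13 and 0.07, against the SNU449 control means, so the lines overlapped. ATP5F1D, the delta subunit of the rotor stalk, was at 11.14, 11.62 and 11.24 in Hep3B controls and at 9.46, 9.74 and 9.47 in SNU449 controls (difference 1.78, standard error 0.15), and its other probe set was also called, at 1.57. ATP5PF, of the peripheral stalk, was called at 0.52. ATP5F1A, the alpha subunit of the catalytic head, went the other way, at 11.56, 11.63 and 11.59 against 12.33, 12.37 and 12.35 (difference -0.76, standard error 0.09, adjusted p = 0.00016). ATP5F1B, the beta subunit that carries the catalytic sites, was at 11.63 ± 0.12 and 11.59 ± 0.07 (SD, n = 3), a difference of 0.04 with an interval of -0.19 to 0.27. The rotor ring is built from protein c, which is encoded by 3 genes with the same mature product. Of these ATP5MC2 (-0.84) and ATP5MC1 (-0.77) were called lower in Hep3B and ATP5MC3 was not called (0.22, adjusted p = 0.114). ATP5F1E, the epsilon subunit, was at 11.62, 11.74 and 11.65 against 12.32, 12.15 and 12.20 and was also called lower (-0.56). A secondary probe set of ATP5F1C, 214132_at, was called lower as well (-0.71, adjusted p = 0.00108). The stalk and membrane subunits ATP5PB (-0.09), ATP5PD (-0.09), ATP5PO (0.17), ATP5MG (-0.07) and ATP5MF (-0.15) were not called. Over all members, 37 genes had more than 1 probe set that was not dim, and in 9 of them (6 subunits) these differed in sign between the lines.

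Among the genes that are no subunits 4 of the 8 NDUFAF assembly factors were called higher in Hep3B controls and 1 lower. Of all genes 21.4% were called higher and 19.4% lower. NDUFAF1 was at 7.36, 7.30 and 7.36 against 5.49, 6.01 and 5.73 (difference 1.60, standard error 0.13), NDUFAF7, a methyltransferase that acts on complex I, differed by 1.43, and NDUFAF4 by 1.15 on its leading probe set. NDUFAF8 was lower (-1.24), at 7.62, 7.97 and 7.88 against 9.00, 9.20 and 8.97. The other probe sets of NDUFAF4, NDUFAF7 and NDUFAF8 differed by -0.35 to 0.06 and were not called. ATP5IF1, the inhibitor of ATP synthase, had the largest difference of any member probe set on 223339_at, at 7.26, 7.35 and 6.97 against 4.63, 4.15 and 4.55 (difference 2.75, standard error 0.16). Its other 2 probe sets both differed by 0.15 and were not called, so this value belongs to 1 probe set and not to all transcripts of the gene.

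The calls were unevenly placed along the genome. Chromosome 19 holds 11 OXPHOS genes, of which 9 were called higher in Hep3B controls and 0 lower, with a median of 0.97. All 1320 genes of this chromosome had a median of 0.03, and 24.2% of them were called higher. Over the 79 OXPHOS genes elsewhere 25 were called higher and 9 lower, with a median of 0.11. Beside each of the 11 genes the nearest 10 measured genes on each side were read, leaving out other OXPHOS genes. Around ATP5F1D, NDUFS7 and UQCR11, which lie near each other on the short arm and share neighbours, these had medians of 0.78, 0.62 and 0.61, and 12 of 19, 11 of 19 and 10 of 20 were called higher. Around NDUFA11 and NDUFA7 (1.02 and 0.61) they had medians of 0.36 and 0.33, and 8 of 20 and 9 of 20 were called higher. Around NDUFB7, NDUFA13, COX6B1 and NDUFA3 the neighbours had medians of 0.04, 0.07, 0.05 and -0.03, although these genes themselves differed by 0.96, 1.53, 0.49 and 0.97. DNA copy number was not analysed here.

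**Figure D2:**
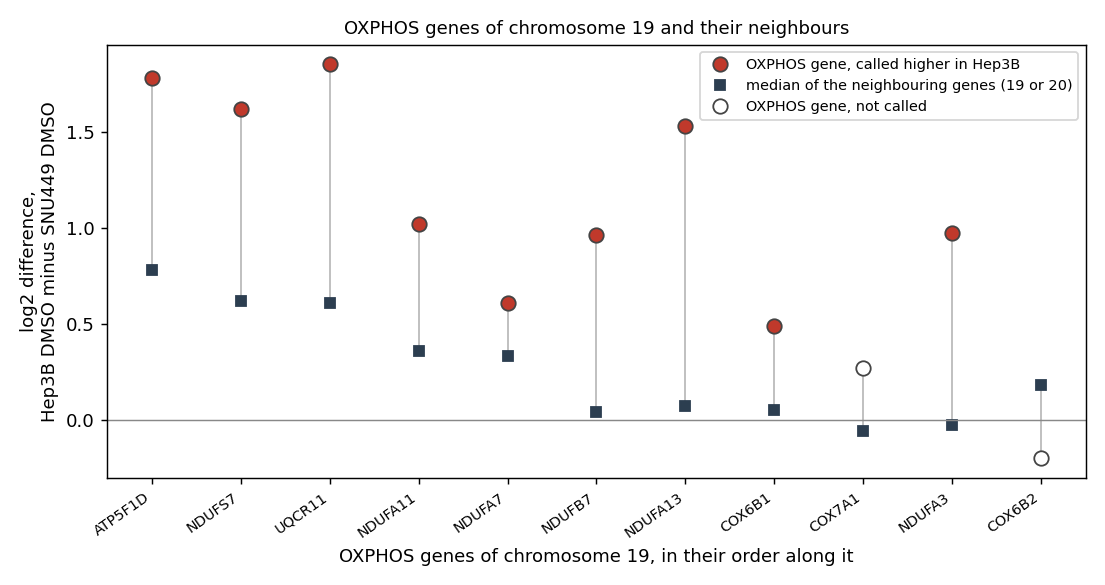
Log2 difference between Hep3B and SNU449 control cells (y axis) for the 11 OXPHOS genes of chromosome 19 in their order along it (x axis; circles, red where called higher, white where not called) and the median over the 19 or 20 nearest other genes (squares). The neighbours of the first 3 genes have medians of 0.61 to 0.78, while those of NDUFA13 lie at 0.07 below a gene at 1.53.

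In Hep3B the comparison with DMSO controls asked whether 2 μM DAAD2 changed these genes in the sensitive line. No OXPHOS probe set was called, nor was any of the 54613 in this fit (0% higher and 0% lower). At an unadjusted p under 0.05 from limma 12 of the 173 were higher and 2 lower, against 9.53% and 5.47% of all probe sets. Under no alternative fit was a member called either, although 1 fit of all 12 arrays called 123 probe sets higher and 31 lower over the whole array and the trended variance 271 and 48. The differences ran from -0.38 to 0.40, and the median was 0.03 on the deposited scale, -0.03 after quantile normalization and -0.01 without DMSO replicate 3. The median half-width of the 95% interval was 0.23 for a leading probe set, and because calls were adjusted over all probe sets, changes well above that size could go uncalled.

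By complex, the medians in Hep3B were 0.03 for I, -0.01 for II, 0.02 for III, -0.06 for IV and 0.05 for V. With quantile normalization they were -0.07, -0.15, -0.06, -0.07 and -0.02, and with centring 0.09, 0.05, 0.08, -0.01 and 0.11, so the signs of I, II, III and V hang on the scaling. Without DMSO replicate 3 complex I was at -0.04, and without DMSO replicate 2 complexes II and IV were at 0.02 and 0.01. The catalytic and other large subunits differed from their controls by -0.07 to 0.24, none being called. NDUFS1 was at 9.37 ± 0.05 and 9.61 ± 0.03 (SD, n = 3; difference 0.24, adjusted p = 0.259), NDUFV1 differed by 0.10, SDHA by -0.01, UQCRC1 by -0.07, COX4I1 by -0.01, COX5A by 0.17, ATP5F1A by 0.16 and ATP5F1B by 0.06. The last of these had a 95% interval of -0.17 to 0.28, which is for RNA on its leading probe set and the deposited scale only.

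Next to complexes I to V, the NDUFAF assembly factors had the highest median in treated Hep3B. All 8 lay above 0, between 0.11 and 0.35, with a median of 0.24, and 4 had an unadjusted p under 0.05, against 13.6% of all genes higher at that threshold, but none was called. Of all 19775 genes 9617 lay above 0 in Hep3B, while all probe sets that are not dim had a median of 0.06. With quantile normalization 5 of 8 lay above 0 and the median was 0.08. NDUFAF7 was at 7.21, 7.20 and 7.31 in controls and at 7.60, 7.57 and 7.62 after DAAD2, without overlap (difference 0.35, adjusted p = 0.129). NDUFAF2 was at 8.10, 8.28 and 8.41 against 8.55, 8.57 and 8.69 (0.34, adjusted p = 0.202), and NDUFAF5 differed by 0.29 on both of its probe sets that are not dim. Among the subunits NDUFB2, of the membrane arm of complex I, was at 9.84, 9.89 and 10.00 against 10.12, 10.38 and 10.15 (0.31, adjusted p = 0.23). NDUFC1 differed by 0.40 on a dim probe set, and ATP5MC3 by 0.31 on 228168_at, while the other probe sets of ATP5MC3 differed by 0.02 and -0.06. Only the pseudogene ATP5MC2P1 (-0.38) and the testis isoform COX6B2 (-0.21, dim) were lower at an unadjusted p under 0.05, and neither was called.

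**Figure D3:**
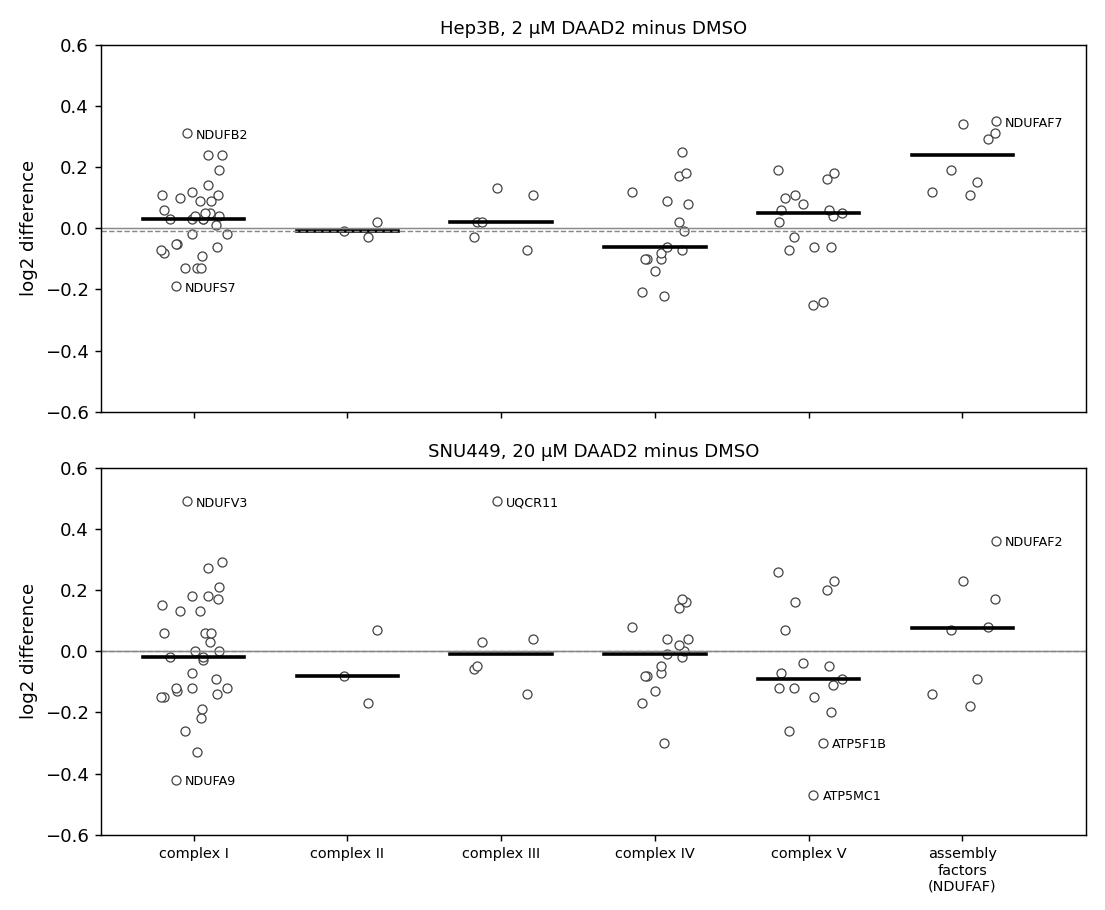
Log2 difference between DAAD2-treated and DMSO control cells (y axis, means of 3 arrays each) for the leading probe set of each gene, by complex and for the 8 NDUFAF assembly factors, in Hep3B (top, 2 μM) and SNU449 (bottom, 20 μM). Black bars are medians and dashed lines the medians of all genes; no point is called in either line, and the medians of complexes I to V lie between -0.09 and 0.05.

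In SNU449 the same question was put to the resistant line at 20 μM. Of the 173 probe sets 1 was called higher and 1 lower, against 1.04% and 0.417% of all probe sets. Without adjustment 7 were higher and 12 lower at a p under 0.05, against 6% and 5.8%. The median was -0.02, and by complex it was -0.02, -0.08, -0.01, -0.01 and -0.09 for I to V. On the leading probe sets 0 of 90 genes were called in this limma fit, against 1.82% called higher and 0.561% lower of all genes. At an unadjusted p under 0.05 from limma 6 of the 90 were higher and 5 lower, against 9.42% and 7.18% of all genes.

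Both calls fell on secondary probe sets of small complex IV subunits. COX7B on 239252_at was at 5.76, 5.89 and 5.69 in controls and at 4.20, 4.82 and 4.20 after DAAD2, a 2.59-fold lower signal (difference -1.37, standard error 0.18, adjusted p = 0.0116). All 3 treated arrays lay below the controls. The leading probe set of the gene, 202110_at, was at 11.47, 11.57 and 11.23 against 11.35, 11.40 and 11.32 (difference -0.07, interval -0.34 to 0.21). In Hep3B 239252_at was near background in both groups, at 3.97 ± 0.17 and 4.02 ± 0.11 (SD, n = 3). The call was lost without DMSO replicate 2 (adjusted p = 0.071), DMSO replicate 3 (0.0648) or DAAD2 replicate 1 (0.0641), with differences of -1.32, -1.42 and -1.27.

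COX7C on 213846_at was at 8.09, 8.27 and 8.15 in controls and at 8.75, 8.69 and 8.73 after DAAD2 (difference 0.56, standard error 0.11, adjusted p = 0.0431). The other probe sets of COX7C differed by 0.02 and -0.04. This call did not hold without any 1 of the 6 arrays, where the adjusted p lay between 0.0564 and 0.202, nor with GAPDH 3′ minus 5′ as a covariate (0.055).

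In 37 genes more than 1 probe set was not dim. After DAAD2 these probe sets differed in sign in 18 of the genes (14 subunits) in SNU449 and in 11 (10 subunits) in Hep3B. UQCR11 and NDUFV3 were among the 18, with values below the threshold. UQCR11 was at 10.50, 10.47 and 10.31 in controls and at 10.88, 10.82 and 11.05 after DAAD2 on its leading probe set (0.49, adjusted p = 0.0911), and differed by -0.41 on 223613_at (adjusted p = 0.191). NDUFV3 differed by 0.49 and -0.29 on its probe sets (adjusted p = 0.296 and 0.498). ATP5MC1 was at 9.50, 9.73 and 9.76 against 9.24, 9.06 and 9.28 (-0.47, adjusted p = 0.125), NDUFA9 differed by -0.42 (adjusted p = 0.113) and ATP5F1B by -0.30 (adjusted p = 0.369). NDUFAF2 had a value like that in Hep3B, 0.36 (adjusted p = 0.205). Of the same subunits NDUFS1 differed by 0.06, NDUFV1 by -0.15, SDHA by -0.17, UQCRC1 by -0.14, COX4I1 by 0.04, COX5A by -0.08 and ATP5F1A by -0.04.

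**Figure D4:**
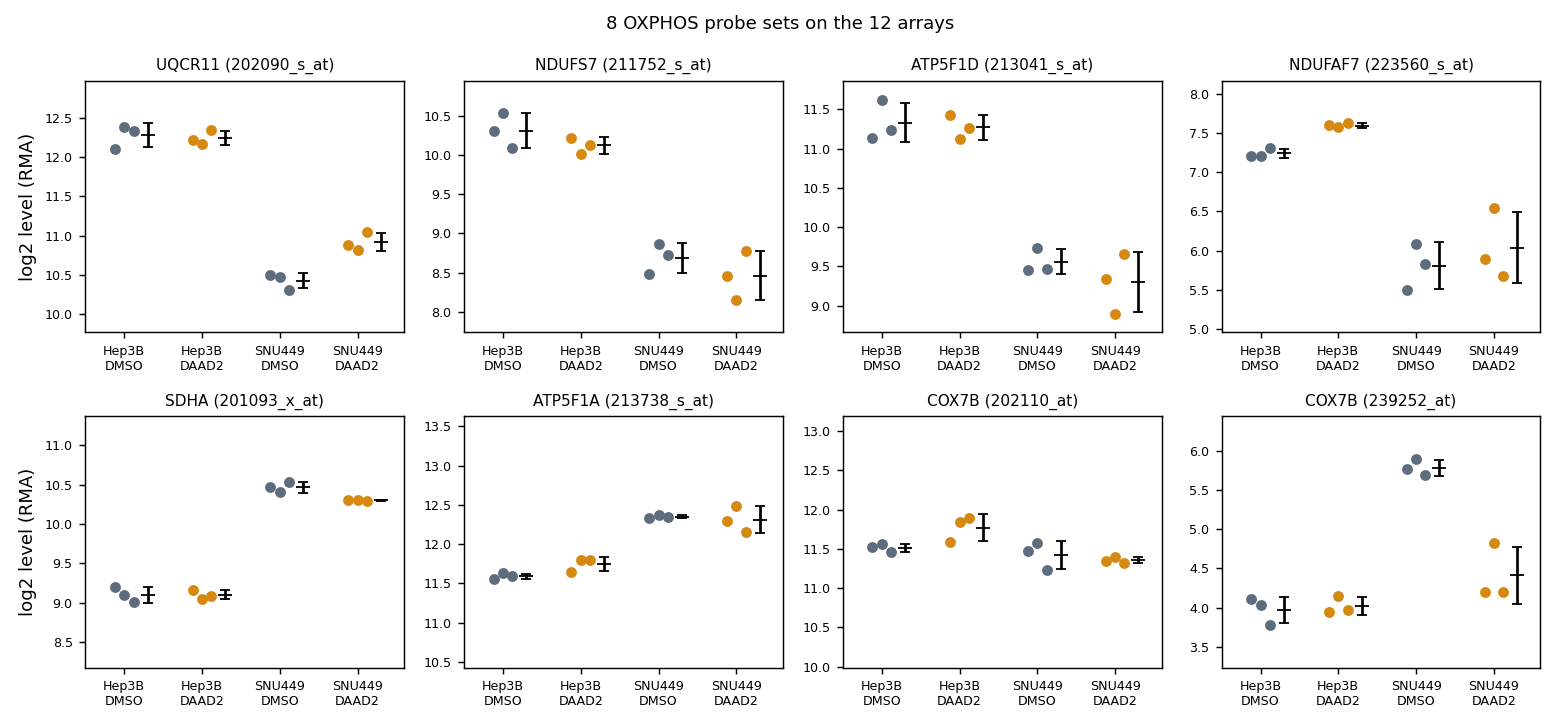
Log2 level (y axis) of 8 OXPHOS probe sets on each of the 12 arrays, by group (x axis); points are arrays, coloured orange for DAAD2 and grey for DMSO, and the bar beside them is the mean with its SD (n = 3). Each panel spans the same number of log2 units. UQCR11, NDUFS7, ATP5F1D and NDUFAF7 are higher in Hep3B and SDHA and ATP5F1A higher in SNU449 with or without DAAD2, and of the COX7B probe sets 239252_at, but not 202110_at, is lower in DAAD2-treated SNU449.

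The response in Hep3B minus that in SNU449 was tested as an interaction over all 12 arrays. Of the 173 probe sets 1 was called higher and 0 lower, against 1.21% and 0.797% of all probe sets, with 14 higher and 5 lower at an unadjusted p under 0.05, against 8.05% and 5.97%. The call was COX7B on 239252_at (difference between the responses 1.42, standard error 0.22, adjusted p = 0.00832), with responses of 0.05 in Hep3B and -1.37 in SNU449. ATP5MC1 had the largest such difference among the leading probe sets, with a response of 0.18 in Hep3B and -0.47 in SNU449 (difference 0.64, adjusted p = 0.0571). The median over the members was 0.05, and -0.03 with quantile normalization. The comparisons share control arrays, so the responses and the difference between the control cells are not independent of each other.

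Subunits and isoforms outside the rule were read beside the members. COXFA4 (formerly NDUFA4), a subunit of complex IV, was higher in Hep3B controls by 0.88 (adjusted p = 0.000121) and differed by 0.12 in Hep3B and -0.02 in SNU449 after DAAD2. Its paralogue COXFA4L3 (C15orf48), which can take the place of COXFA4 in complex IV, behaved differently. It was at 4.33, 4.14 and 4.19 in Hep3B controls and at 4.18, 4.46 and 4.36 after DAAD2. In SNU449 it was at 7.99, 8.26 and 7.93 in controls and rose to 9.97, 10.02 and 10.03 after DAAD2, a 3.85-fold higher signal (difference 1.94, standard error 0.12, adjusted p = 0.000726). The response in Hep3B minus that in SNU449 was -1.83 (standard error 0.16, adjusted p = 0.000173), and both calls held under every alternative run. COXFA4L2 was not called in any comparison. CYCS, the electron carrier cytochrome c, was higher in Hep3B controls by 0.74, and differed by 0.20 in Hep3B (adjusted p = 0.332) and by -0.39 in SNU449 (adjusted p = 0.159) after DAAD2.

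Assembly factors of all complexes that the rule does not match were read in the same way. Of 45 such genes 23 were called higher and 6 lower in Hep3B controls, against 21.4% and 19.4% of all genes, with a median of 0.38. SDHAF3, which matures succinate dehydrogenase, was higher by 2.05, and UQCC1, a factor of complex III, differed by -2.16 (from 7.97 ± 0.02 in SNU449 to 5.81 ± 0.23 in Hep3B, SD, n = 3). After DAAD2, 0 were called in Hep3B (8 higher and 2 lower at an unadjusted p under 0.05 from limma, against 13.6% and 6.63% of all genes). In SNU449 1 of the 45 was called higher and 2 lower, against 1.82% and 0.561% of all genes. FOXRED1, a complex I assembly factor, fell by 0.79 (adjusted p = 0.0179) and FMC1, of complex V, by 0.75 (adjusted p = 0.0392). COA6, a copper chaperone of complex IV, rose by 0.59 (adjusted p = 0.0495). FOXRED1 was at 7.47, 7.42 and 7.40 in controls and at 6.50, 6.79 and 6.64 after DAAD2. Each of these 3 calls was lost without DMSO replicate 1, 2 or 3 or DAAD2 replicate 1, with adjusted p between 0.0623 and 0.224 over these arrays, and that of COA6 also without DAAD2 replicate 2 or 3 and that of FMC1 without DAAD2 replicate 3.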

How the data were processed

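RNA of 4 groups of 3 arrays was measured on Affymetrix arrays. The deposited log2 values were made by the authors with RMA, which corrects background, normalizes between arrays and summarises probes per probe set. The sources used here give no version of RMA, and name BRB Array Tools for normalization and quality control. Groups came from the sample labels, and 0 columns of array values were left unused. Without 62 control probe sets, 54613 were tested with lmFit and eBayes of limma 3.58.1 in R 4.3.3, two-sided, with Benjamini-Hochberg adjustment over all of them, on the arrays of the groups compared. No low values were filtered, so all 173 member probe sets entered. Genes were named from the platform annotation, in which 41091 probe sets have 1 symbol, 1801 several and 11721 none. The members, lists and rules were chosen with earlier results of these data known. Named were called members with the largest changes (up to 10 each way), where none was called up to 6 each way with an unadjusted p under 0.05 and no overlap, core subunits, complex IV isoforms, genes whose probe sets differ in sign and up to 4 called genes per list. With 3 arrays a group, exact permutation allows no p below 0.1. The fit was tested on simulated data. Alternatives were 1 fit of all arrays, the replicate number as a block, no dim probe sets, centring, quantile normalization, another variance model, 1 probe set per gene, no _x_at probe sets, RNA quality as a covariate, a fold threshold of 1.5 and each array left out. Array number limits the precision. Tables and figures used Python 3.11.15, pandas 2.3.3, numpy 2.4.6 and matplotlib 3.10.9.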

Additional observations from a re-analysis of the deposited data

Results flagged for a closer look

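In 8 cases the DAAD2 response differed between the lines by the interaction test in limma over 12 arrays. They were drawn from the 173 member probe sets and the leading probe sets of the listed genes. Of the 173, 1 was called higher and 0 lower. Of 45 assembly factors outside the rule 1 was called higher and 1 lower, and of 12 chaperones and proteases 2 and 0. Of 10 subunits and carriers outside the rule 1 was called higher and 1 lower, and of 6 hepatocyte markers 0 and 1. Among 17 regulators of mitochondrial biogenesis, 16 citric acid cycle genes and the other markers 0 were called. Over all genes 1.82% of leading probe sets were called higher and 1.46% lower by this test. Whether the 8 cases exceed this background was not tested. COX7B is the only member among the 8 cases. Each case also compares 2 μM with 20 μM, and the part of the dose was not tested. COX7B on 239252_at had a difference of 1.42 (adjusted p = 0.00832), from 0.05 in Hep3B and -1.37 in SNU449. COXFA4L3 had a difference of -1.83 (adjusted p = 0.000173), from 0.12 and 1.94. FOXRED1 had a difference of 0.92 (adjusted p = 0.0114), from 0.13 and -0.79. LONP1, a protease of the mitochondrial matrix, had a difference of 0.76 (adjusted p = 0.0133), from 0.34 and -0.43. HSPA9, the matrix chaperone mortalin, had a difference of 0.80 (adjusted p = 0.0189), from 0.54 and -0.27. CYCS had a difference of 0.59 (adjusted p = 0.0366), from 0.20 and -0.39. COA5, an assembly factor of complex IV, had a difference of -0.67 (adjusted p = 0.0393), from -0.13 and 0.54. FGB, a fibrinogen chain read as a hepatocyte marker, had a difference of -1.44 (adjusted p = 0.0203), from 0.12 and 1.56. The separate responses of LONP1, HSPA9, CYCS and COA5 were not called in either line. The differences of CYCS and COA5 were called in 8 and 9 of 20 alternatives, those of HSPA9 and FGB in 14, those of LONP1 and FOXRED1 in 19 and that of COXFA4L3 in 20.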

How the results depend on the processing

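With the replicate number as a block, the OXPHOS counts in the control cells were 51 higher and 16 lower, COX7C in SNU449 was lost (0 called higher, adjusted p = 0.123) and COX7B was kept. Not every pair of same-numbered arrays deviated together (correlations of -0.271 to 0.090 in Hep3B, -0.076 to -0.008 in SNU449 and 0.024 to 0.213 between the controls, the last for replicate 2), so the numbers were not taken as pairs. The count higher in SNU449, 1 as reported, was 2 in 1 fit of all arrays and with the trended variance, and 0 without dim probe sets, with centring, with 1 probe set per gene, with the RNA quality covariate, with the fold threshold and without any 1 of the arrays (0 to 0). The count lower in SNU449 was 3 in 1 fit of all arrays, 0 with 1 probe set per gene and 0 to 1 with an array left out. Between the controls the count lower was 9 with 1 probe set per gene and 8 with the fold threshold of 1.5, and the median was 0.17 without dim probe sets and 0.18 with 1 probe set per gene. With an array left out, 45 to 50 were called higher and 11 to 14 lower there. The difference between the responses had 2 called higher with centring, 3 with the trended variance (and 1 lower), 4 with the fold threshold and 1 to 2 with an array left out (2 without SNU449 DMSO replicate 1), and its median was 0.09 with centring and -0.03 with quantile normalization. The Hep3B median was 0.09 with centring, -0.03 with quantile normalization and -0.01 to 0.05 with an array left out. Among named probe sets 431 values kept their direction and side of the threshold, 18 lost the call and 0 reversed. NDUFB8 on the dim 214241_at lost its call between the controls in 1 fit of all arrays (adjusted p = 0.094), and ATP5MC2 on the dim 207552_at without SNU449 DMSO replicate 1 or 3 or Hep3B DMSO replicate 2 or 3 (0.0678 to 0.108). The cause was not tested. Probe sets near background limit what their differences can show.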

Other observations

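Transcripts encoded by mitochondrial DNA were also higher in Hep3B controls where they were called. COX1, the catalytic subunit of complex IV, was at 13.03 ± 0.17 in Hep3B and 12.56 ± 0.08 in SNU449 controls (SD, n = 3; difference 0.47, limma adjusted p = 0.0121). ND2 of complex I differed by 0.67 (adjusted p = 0.00931) and ATP6 of complex V by 0.44 (adjusted p = 0.0381) on its leading probe set. ND4 differed by 0.12 and 0.07 on its probe sets and was not called. ND6 differed by 1.55 with a spread of 0.79 (SD) among the Hep3B controls. After DAAD2, none of these was called in either line. Apart from ND6, COX3 and the second probe set of ATP6, these transcripts lie near the top of the array scale. Any compression of differences there was not tested.

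Of all genes 21.4% were called higher and 19.4% lower in Hep3B controls, the background for the counts that follow. Of 17 regulators of mitochondrial biogenesis 7 were called higher and 4 lower, the latter near the background. PPARGC1A, the coactivator PGC-1 alpha, was at 5.23, 5.29 and 5.05 in Hep3B and at 2.96, 2.98 and 2.88 in SNU449 (difference 2.24, adjusted p = 3.83e-07). POLRMT, the mitochondrial RNA polymerase, was higher by 1.63. HIF1A, which mediates the response to low oxygen, differed by -1.87, and the coactivator PPARGC1B by -1.41. NRF1 (0.20, adjusted p = 0.268) and GABPA (0.01), which bind the promoter letters searched for, were not called, whereas GABPB1, the partner of GABPA, was called higher (0.80, adjusted p = 0.000904). TFB1M, a mitochondrial rRNA methyltransferase, rose by 0.79 in SNU449 after DAAD2 (adjusted p = 0.0385), a call that was lost without any 1 of the 6 arrays. A list of 16 genes held genes of the citric acid cycle and PDHA1, PDHB, PDHX and DLAT of pyruvate dehydrogenase, which feeds the cycle. Of these 16 genes 8 were called higher in Hep3B controls and 4, near the background, lower, led by IDH2 (2.37) and IDH3G (-1.95). After DAAD2 all 16 lay above 0 in Hep3B (median 0.15, 0 called, 3 at an unadjusted p under 0.05 from limma, against 13.6% of all genes), and 10 of 16 did so with quantile normalization. Of all 19775 genes 9617 lay above 0 in Hep3B, while all probe sets that are not dim had a median of 0.06. In SNU449 10 of 16 lay below 0 (median -0.18), while SUCLG2 was called higher (0.83, adjusted p = 0.0251), a call lost without any 1 DMSO array or DAAD2 replicate 1 (adjusted p up to 0.115). Of 12 mitochondrial chaperones and proteases 6 were called higher and 2, near the background, lower in Hep3B controls.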
